A study of Drosophila melanogaster with 6 samples.

Results

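The genes described here are the intervein regulators of the fly wing and the integrin adhesion machinery that holds its cell layers together. They were given as a list of 10 genes: the intervein transcription and nuclear factors bs, net and px, the RNA-binding regulator how, the integrin subunits mys, mew, if and scb, and the integrin-associated adapters rhea and Ilk. Every probe set that the array's probe table gives to exactly 1 of these symbols was taken. That gave 10 probe sets of 9 genes, out of 13966 probe sets and 10844 genes with a symbol of their own. No probe set carried the symbol how, and this gene was not analysed here.

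The samples were wing imaginal discs of Drosophila melanogaster, the larval epithelia that become wing and notum, taken at the third larval instar from flies raised at 25 °C. In the group EGFR DN, the transgene was a dominant negative Egfr, the epidermal growth factor receptor with its signalling blocked, and in the group EGFR ACT it was an activated Egfr (TOP). The 71B-Gal4 driver switched it on in both groups, in a pattern the labels do not give, and neither group lacked a transgene. Each group has 3 arrays, numbered as in the labels and written DN1, DN2, DN3, ACT1, ACT2 and ACT3. The labels do not say whether the replicates were separate batches of animals, so p-values cover the spread among these 6 samples alone, and that spread may be technical.

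The adult wing is 2 sheets of epithelium joined back to back, with veins running between them as open channels and intervein cells adhering elsewhere. Egfr signalling through Ras and ERK promotes vein fate, and in later wing development it acts against bs, which encodes the fly's serum response factor and is needed for intervein fate. Integrins are pairs of an alpha and a beta subunit that bind the extracellular matrix outside the cell and, through talin and its partners, actin inside it. Loss of integrins or of talin in wing cells lets the sheets separate and leaves blisters.

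Values are log2 signals per probe set. Array medians lay between 8.01 and 8.06, and the means of the 4 yeast control probe sets, which match no fly transcript and give a rough background, between 5.54 and 5.96. All 9 measured probe sets of wing disc epithelium markers exceeded the yeast mean on every array, among them vg, nub, ap and salm. Of the 2 Egfr probe sets, 142966_at read 8.50, 9.33 and 9.09 in DN1 to DN3 and 10.40, 10.26 and 10.82 in ACT1 to ACT3, while 151735_at read 8.66, 10.03 and 10.11 against 8.50, 8.78 and 9.75. The first was higher on every EGFR ACT array and the second overlapped between the groups. Whether either probe set matches the transgenes is not known here.

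The comparison asks which genes respond to Egfr activity in the disc. None of the 10 probe sets of intervein and integrin genes passed the limma test, which compared the 2 groups over all 13966 probe sets with Benjamini-Hochberg adjustment and a threshold of 0.05 (adjusted p = 0.9999 for each of the 10). Over the whole array 0% of probe sets passed. At an unadjusted p under 0.05 there was 1 of the 10, scb, against 2.21% of all probe sets (308). Of the 10, 5 were higher and 5 lower in EGFR ACT. The median log2 difference, EGFR ACT minus EGFR DN, was -0.01, and over all probe sets 0.02. The median size of the difference, regardless of sign, was 0.13 for these genes and 0.10 for all probe sets. In RNA of whole discs, fewer cells expressing a gene and less RNA per cell cannot be told apart.

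The intervals show what size of change these arrays could still hold. Taken singly and without adjustment, each 95% interval from the limma fit lay inside a 2-fold change. The widest reach was a 1.94-fold lower level in EGFR ACT, at one rhea probe set, and the largest rise that any interval allowed was 1.64-fold, at if. All but that of scb included no change.

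The intervein factor bs did not differ between the groups beyond their spread. Its signal in EGFR DN was 7.75, 8.33 and 8.31, and in EGFR ACT it was 7.79, 7.70 and 8.46, for replicates 1 to 3. In both groups its values fell into a low and a high level, low in DN1, ACT1 and ACT2 and high in DN2, DN3 and ACT3, with no array in between. The group means were 8.13 ± 0.33 (SD, n = 3) in EGFR DN and 7.98 ± 0.41 in EGFR ACT, and the log2 difference was -0.15 (SE 0.24). The interval ran from a 1.60-fold lower to a 1.31-fold higher level. This order of arrays was not particular to bs. One of the rhea probe sets (151754_at), Ilk and the second Egfr probe set also had all of DN1, ACT1 and ACT2 below DN2, DN3 and ACT3. Of the 9 disc epithelium probe sets, 3 had this order (vg, ap and en) and the others did not. The order also held for 4 of 7 salivary gland markers (Sgs3, Sgs5, Sgs7 and Sgs8), while Sgs1, Sgs4 and fkh did not have it. Among muscle probe sets 2 of 6 had it (Mlc1 and Mlc2) and in the fat body 1 of 3. Among tracheal ones it was 2 of 11, verm and pyd 153475_at, and the other pyd probe sets did not have it. For myoblasts it was 1 of 10, for tendon 1 of 5 and for hemocytes 0 of 9. Among the gene lists described further below, 5 of 14 ligand and matrix probe sets had it. So did 2 of 23 of adhesion linkers and signalling and 2 of 5 of other intervein factors (kn and emc). For vein genes it was 0 of 6 and for other integrin subunits 0 of 3. The share over all probe sets was not counted, so none of these counts has a baseline. The summed linear signal on DN1, ACT1 and ACT2 and then on DN2, DN3 and ACT3 was 4108, 3229 and 4154 and then 13088, 13795 and 10593 for the salivary gland. It was 10272, 8669 and 8735 and then 12692, 13926 and 11370 for trachea. For the fat body it was 4184, 2052 and 4136 and then 5483, 8502 and 6383. For muscle it was 1937, 1863 and 1767 and then 3015, 3579 and 2822. The sums of the other markers overlapped between these 2 sets of arrays. They were 3323, 3086 and 3368 and then 3199, 3086 and 2754 for myoblasts. For hemocytes they were 1686, 2046 and 2282 and then 1937, 1773 and 1903. Disc epithelium had 4981, 6331 and 5906 and then 6097, 5586 and 6567. Tendon had 1614, 1547 and 1446 and then 1792, 1474 and 1568. The brightest probe sets weigh most in such sums, Mlc2 in that for muscle and verm in that for trachea. Not all muscle probe sets ran this way: those of up and Tm2 were highest on DN1. The part of these tissues in the values of bs was not tested.

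The gene net encodes a basic helix-loop-helix protein that restricts vein formation to its normal positions. Its signal was 8.76, 8.93 and 8.78 in DN1 to DN3 and 8.83, 8.91 and 8.87 in ACT1 to ACT3, so all 6 arrays lay within 0.17 of each other. Among the 10 probe sets net had the narrowest range over the arrays and the narrowest interval, from 1.18-fold lower to 1.26-fold higher, around a log2 difference of 0.05 (SE 0.13). The SD within groups was 0.072 for net, while the median over all probe sets was 0.20.

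The gene px encodes Plexus, a nuclear protein whose loss gives a network of extra veins. It read 8.95, 9.60 and 9.14 in EGFR DN and 9.24, 8.98 and 9.25 in EGFR ACT, replicates 1 to 3 in that order. The EGFR ACT arrays lay inside the range of the EGFR DN arrays. The log2 difference was -0.07 (SE 0.19), and it turned to 0.11 without DN2 and to 0.015 without ACT2.

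**Figure D1:**
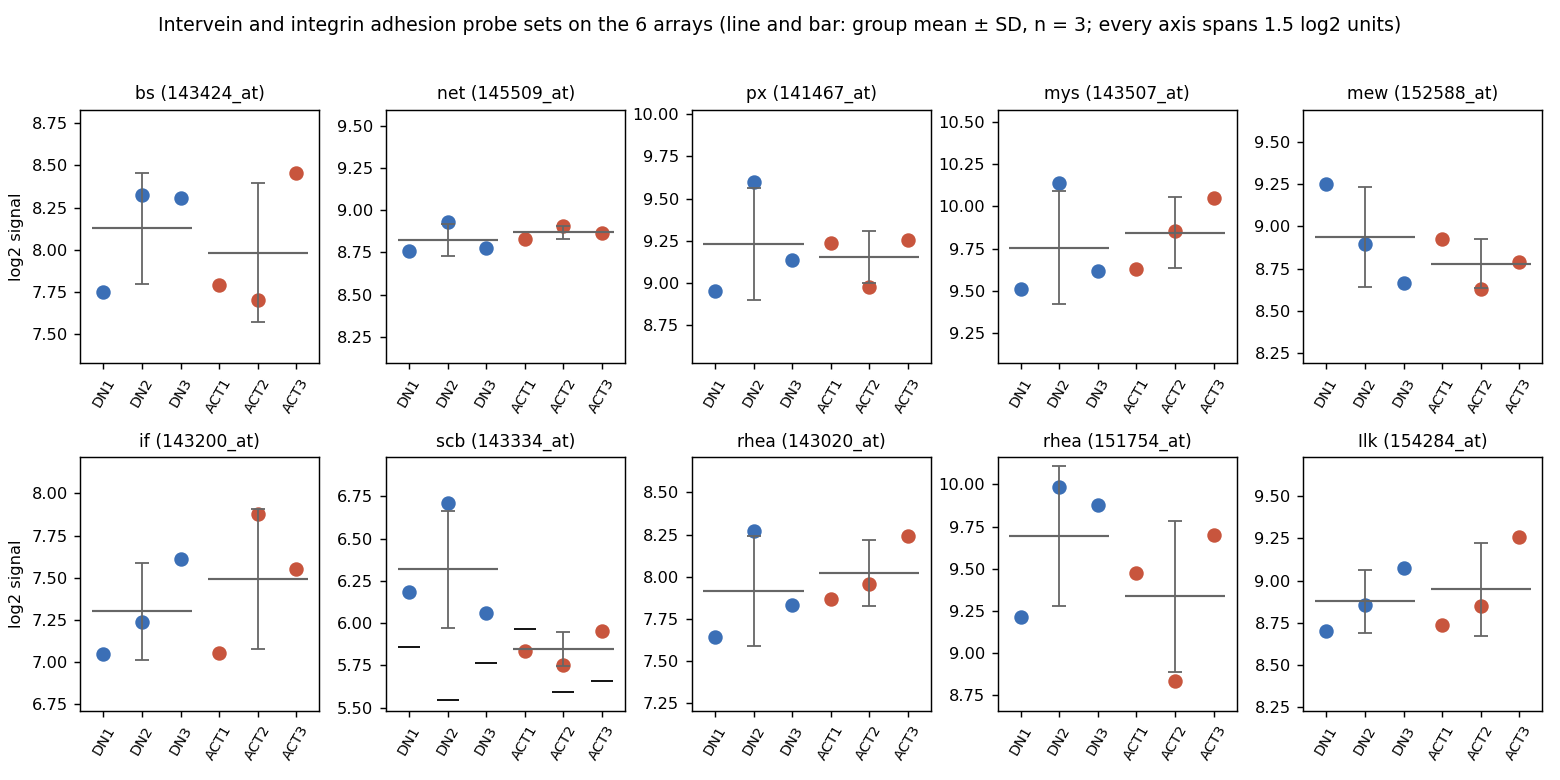
Log2 signal of the 10 probe sets on each array, EGFR DN in blue and EGFR ACT in red, with the group mean (line) and SD (bar, n = 3); the horizontal dashes in the scb panel are the yeast control mean of that array. The groups overlap in every panel except scb, and bs forms a low and a high level in both groups.

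The beta PS subunit of integrins is encoded by mys and pairs with each of the alpha subunits described next. Its signal was 9.51, 10.14 and 9.62 in DN1 to DN3 and 9.63, 9.86 and 10.05 in ACT1 to ACT3. DN1 was lowest and DN2 highest, so the EGFR DN group spanned all the EGFR ACT values. The log2 difference was 0.09 (SE 0.19), with an interval from 1.28-fold lower to 1.44-fold higher. It was -0.03 without DN1 and -0.01 without ACT3.

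In the disc the alpha subunits mew and if are known to mark opposite surfaces of the future wing, mew (alpha PS1) the dorsal and if (alpha PS2) the ventral cells. The signal of mew was 9.25, 8.90 and 8.67 in DN1 to DN3 and 8.92, 8.63 and 8.79 in ACT1 to ACT3. That of if was 7.05, 7.24 and 7.61 in DN1 to DN3 and 7.05, 7.88 and 7.55 in ACT1 to ACT3. On DN1 mew had its highest value and if its lowest, and on ACT2 mew had its lowest and if its highest. The log2 difference was -0.16 (SE 0.18) for mew and 0.19 (SE 0.23) for if, and the groups overlapped for both. Leaving out DN1 brought mew to -0.001, and leaving out ACT2 brought if to 0.004. With array weights if was at -0.05.

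The alpha PS3 subunit is encoded by scb, which is known for roles in tracheal, salivary gland and heart morphogenesis of the embryo. It was the member with the largest difference and the only one whose groups did not overlap. Its signal in EGFR DN was 6.18, 6.71 and 6.06, and in EGFR ACT it was 5.84, 5.75 and 5.95, for replicates 1 to 3. Every EGFR ACT array was below every EGFR DN array, with a gap of about 0.1 between ACT3 and DN3. Groups without overlap, lower in EGFR ACT, were found for 2.84% of all probe sets, and for 6.23% in either direction. The means were 6.32 ± 0.35 (SD, n = 3) in EGFR DN and 5.85 ± 0.10 in EGFR ACT, so that scb was 1.39-fold lower in EGFR ACT. The log2 difference of -0.47 (SE 0.18) had an unadjusted p of 0.0303 in limma and an adjusted p of 0.9999. Without DN2, the highest array, the log2 difference was -0.28.

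The signal of scb was close to the rough background. The yeast mean was 5.96 on ACT1, above scb there, and 5.59 and 5.66 on ACT2 and ACT3, below scb by less than 0.3. In EGFR DN it was 5.86, 5.54 and 5.77. Markers of tissues outside the disc epithelium did not share 1 direction, and none passed the limma test over all probe sets. The log2 difference was below 0 for 8 of 11 tracheal probe sets, all 3 of the fat body, all 7 of the salivary gland and 4 of 6 of muscle. For adepithelial myoblasts it was below 0 for 4 of 10, and for hemocytes for 3 of 9. The 6 myoblast probe sets above 0 were all of sns, while twi, Him, htl and zfh1 were below 0. The 3 tracheal probe sets above 0 were all of pyd, which also had others below 0, while btl, Gasp, verm and serp were below 0. More of the tracheal probe sets belonged to pyd than to any other gene, and whether its signal came from trachea was not tested. Over all probe sets the log2 difference was below 0 for 45.4%. The summed linear signal ranged from 10272 to 13926 in EGFR DN and from 8669 to 11370 in EGFR ACT for trachea, and from 4184 to 8502 and from 2052 to 6383 for the fat body. For the salivary gland it ranged from 4108 to 13795 and from 3229 to 10593, for muscle from 1937 to 3579 and from 1767 to 2822, for myoblasts from 3086 to 3323 and from 2754 to 3368, and for hemocytes from 1686 to 1937 and from 1903 to 2282. Within EGFR DN the sums for trachea, fat body, salivary gland and muscle were highest on DN3, where scb was lowest. Within EGFR ACT the sums for the same tissues were highest on ACT3, where scb was highest. Their part in the difference of scb was not tested.

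The remaining integrin subunit genes, ItgaPS4, ItgaPS5 and Itgbn, read between 5.34 and 6.36 over all arrays, and none of them exceeded the yeast mean on every array. Their log2 differences were 0.02 (SE 0.14), -0.01 (SE 0.16) and 0.09 (SE 0.14). The sign for ItgaPS4 turned with quantile normalization (-0.03) and, to between -0.04 and -0.005, without DN2, DN3, ACT1 or ACT2, and that for ItgaPS5 without DN2 (0.03), ACT1 (0.05) or ACT3 (0.10).

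Talin, the large adapter that links the beta subunit's tail to actin, is encoded by rhea and was measured by 2 probe sets that did not run alike. Probe set 143020_at read 7.64, 8.27 and 7.83 in DN1 to DN3 and 7.87, 7.96 and 8.24 in ACT1 to ACT3. Probe set 151754_at read 9.22, 9.98 and 9.88 in DN1 to DN3 and 9.48, 8.84 and 9.70 in ACT1 to ACT3. They parted most on ACT2, which was near the middle for the first and the lowest of all for the second. Their log2 differences had opposite signs, 0.11 (SE 0.19) and -0.36 (SE 0.26), and both overlapped between groups. The mean of both gave -0.13. The first was -0.03 without DN1 and -0.004 without ACT3, and the second ran from -0.59 without DN1 to -0.11 without ACT2.

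Ilk encodes the integrin-linked kinase, a scaffold without catalytic activity in the fly that joins integrins to parvin and PINCH. Its signal was 8.70, 8.86 and 9.08 in DN1 to DN3 and 8.74, 8.85 and 9.26 in ACT1 to ACT3. Arrays of the same number lay close together in both groups, and the groups overlapped. The log2 difference was 0.07 (SE 0.18), and it was -0.02 without DN1 and -0.08 without ACT3.

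For all 10 probe sets the range among the EGFR DN arrays exceeded the difference between the group means, as it did for 88.1% of all probe sets. Between DN1 and DN2, which carry the same transgene, 9 of the 10 were higher in DN2, with a median log2 difference of 0.55. Over all probe sets 42% were higher in DN2, with a median of -0.06. DN2 held the highest value for 6 of the 10 and DN1 the lowest for 6, where 11.4% of all probe sets were highest in DN2 and 13.1% lowest in DN1. Only mew ran the other way between these arrays, at 9.25 in DN1 and 8.90 in DN2. The median SD within groups was 0.26 over the 10 probe sets and 0.20 over all.

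**Figure D2:**
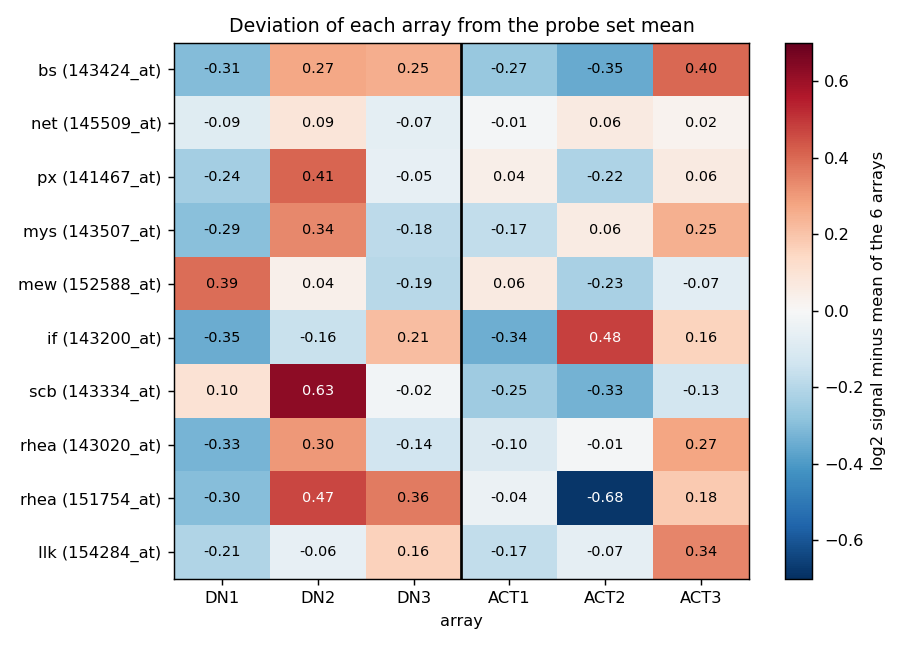
Log2 signal of each probe set on each array minus its mean over the 6 arrays, with red for higher and blue for lower values; the vertical line separates EGFR DN from EGFR ACT. DN1 is the lowest array for 6 probe sets and DN2 the highest for 6, while mys and rhea (143020_at) show nearly the same values along the whole row.

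The pair mys and rhea (143020_at), picked out after the values were seen, followed each other most closely among the 45 pairs of these probe sets. After the mean of each was taken off, they differed by at most 0.071 on any of the 6 arrays. Of the other 13965 probe sets on the array, 4 came as close to mys, this rhea probe set included, and 2 came as close to the rhea probe set. The next pair, px with the same rhea probe set, differed by up to 0.21. The other rhea probe set departed from mys by up to 0.73. These values share arrays and preparation, so they describe 6 arrays and carry no test.

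Other genes of the adhesion system were taken from lists, and none passed the limma test. Of 14 probe sets of 12 ligand and matrix genes, 3 were higher and 11 lower in EGFR ACT, with a median log2 difference of -0.15 against 0.02 over all probe sets. At an unadjusted p under 0.05, 2 of the 14 were lower, against 1.29% of all probe sets, and both belong to Tsp. Without overlap, 1 of the 14 was lower (Tsp) and 1 higher (Tig), against 2.84% and 3.39% of all probe sets. Tsp encodes thrombospondin, an integrin ligand of muscle attachment sites. Its probe set 151568_at read 7.64, 8.04 and 7.39 in DN1 to DN3 and 7.14, 7.04 and 7.30 in ACT1 to ACT3, without overlap. Probe set 142426_at read 9.58, 9.43 and 9.10 in DN1 to DN3 and 9.20, 8.82 and 8.88 in ACT1 to ACT3, with ACT1 above DN3. The log2 differences were -0.53 (SE 0.18) and -0.40 (SE 0.17), with limma's adjusted p at 0.9999 for both. Among 5 tendon cell markers, 3 were lower (sr, slow and drm) and 2 higher (Alk and Lrt). Without overlap, slow was lower at -0.41 and Lrt higher at 0.695, against 2.84% and 3.39% of all probe sets. Alk exceeded the yeast mean on 1 of the 6 arrays only. The summed signal of the tendon markers ranged from 1474 to 1792 in EGFR DN and from 1446 to 1568 in EGFR ACT. Their part in the values of Tsp was not tested.

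The collagen IV gene vkg had a log2 difference of -0.36 (SE 0.17) and the laminin alpha gene wb one of -0.36 (SE 0.21), both with overlapping groups. Without DN3 vkg was at -0.21, and without DN2 wb was at -0.20. Of 23 probe sets of 17 adhesion linker and signalling genes, 9 were higher and 14 lower, with a median of -0.05 and 0 at an unadjusted p under 0.05. The smallest p was that of parvin, a partner of Ilk, which read 10.15, 9.98 and 9.96 in DN1 to DN3 and 9.86, 9.29 and 9.90 in ACT1 to ACT3. Its groups did not overlap, by a margin under 0.1. Without overlap, 1 of the 23 was lower (parvin) and 1 higher (Zasp52, 147262_at), against 2.84% and 3.39% of all probe sets. The log2 difference of parvin was -0.35 (SE 0.18). Without ACT2, the lowest array, it was -0.15. The others named by the same rule were the spectraplakin gene shot at 0.29 (SE 0.17), the adapter gene p130CAS at -0.35 (SE 0.23) and stck, which encodes the fly's PINCH, at -0.30 (SE 0.21). The value of shot was 0.17 without ACT1 and 0.45 without ACT3. The value of p130CAS was -0.09 without DN3 and that of stck -0.06 without ACT2.

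**Figure D3:**
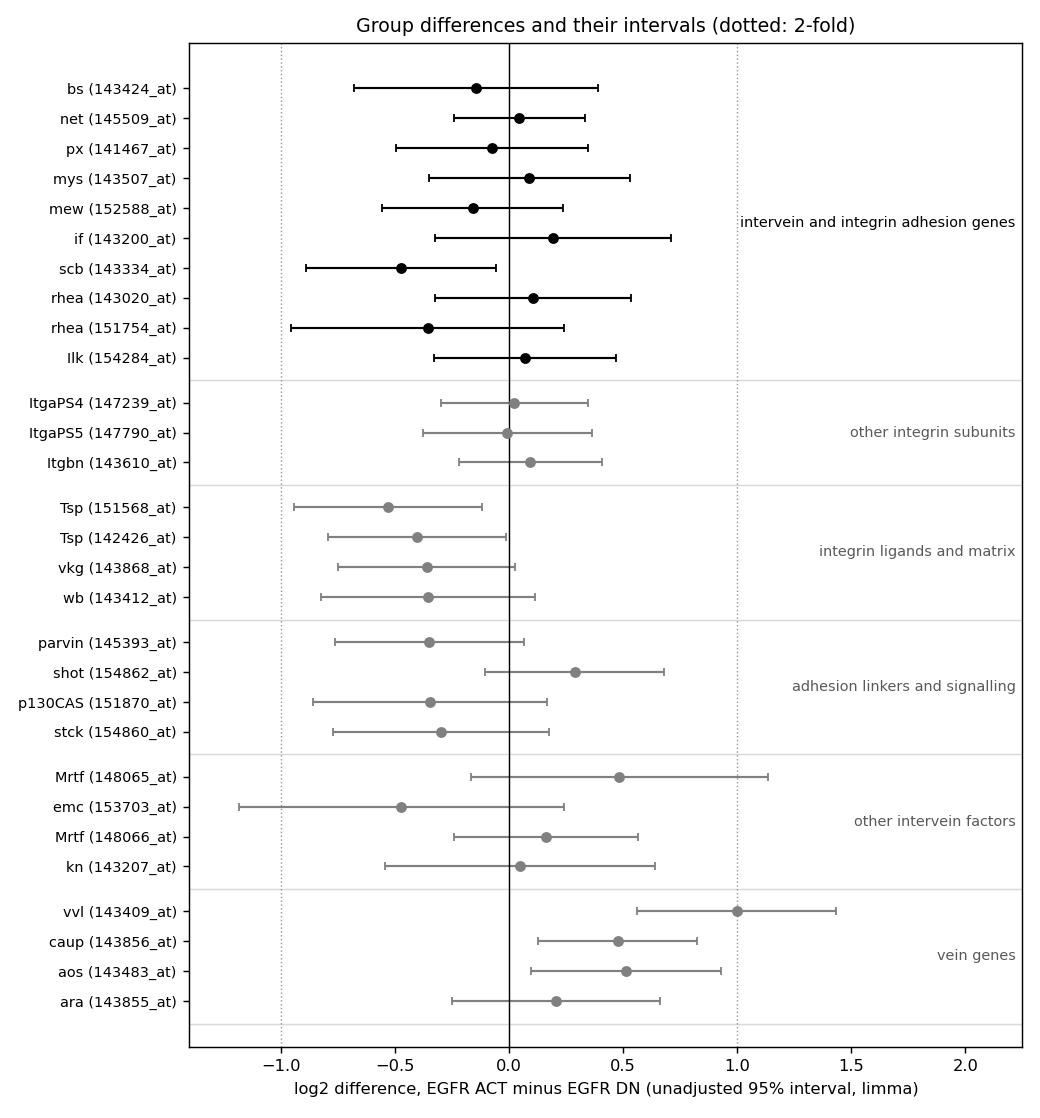
Log2 difference, EGFR ACT minus EGFR DN, with its unadjusted 95% interval from limma, for the 10 probe sets (black) and the named probe sets of other lists (grey); dotted lines mark a 2-fold change. The black intervals all lie within the dotted lines, and that of scb is the one black interval that does not include 0.

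No probe set of the other intervein factors passed the limma test either. Mrtf encodes the coactivator of serum response factor, and its 2 probe sets had log2 differences of 0.48 (SE 0.29) and 0.16 (SE 0.18) with overlapping groups. With 1 array left out the first ran from 0.23 without DN3 to 0.78 without ACT3, with 0.32 without ACT2, and the second from 0.033 without DN2 to 0.30 without DN1, with 0.065 without ACT1 and 0.27 without ACT3. The HLH gene emc, which is active in intervein cells, had -0.47 (SE 0.31), and it was -0.17 without DN2. The gene kn, needed for the intervein between the central veins, had 0.05 (SE 0.26), -0.18 without DN1 and -0.19 without ACT3. For comparison, 5 of 6 measured vein gene probe sets were higher in EGFR ACT, with a median of 0.34, and 3 of the 6 (vvl, caup and aos) were higher without overlap, against 3.39% of all probe sets. The signal of aos exceeded the yeast mean on 1 of the 6 arrays only, ACT3, where it was 6.04. None of the 6 passed over all probe sets either, and whether the vein and the intervein genes differ in their response was not tested.

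Leaving out 1 array at a time showed how far each value rests on single arrays. The sign held in all 6 such fits for bs, net, mew, if, scb and rhea (151754_at), and changed in 2 of them for px, mys, rhea (143020_at) and Ilk. For bs the log2 difference ran from -0.38 without ACT3 to -0.01 without ACT2, and for net from 0.015 to 0.10. The values for scb ran from -0.60 without DN3 to -0.28 without DN2.

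**Figure D4:**
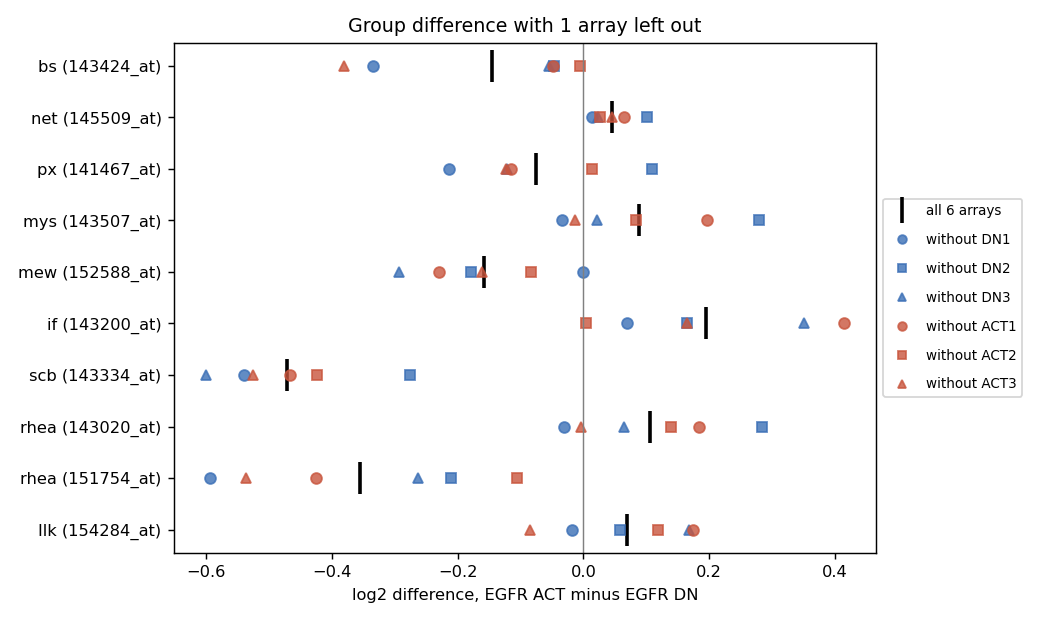
Log2 difference, EGFR ACT minus EGFR DN, with all 6 arrays (black bar) and with each array left out (blue for EGFR DN arrays, red for EGFR ACT arrays; circle, square and triangle for replicates 1, 2 and 3). The points of scb all lie below 0, and those of px, mys, rhea (143020_at) and Ilk lie on both sides of it.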

How the data were processed

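RNA of wing discs had been hybridised as biotin-labelled cRNA, made from 6 µg of total RNA per the labels' protocols, to 6 Affymetrix arrays. In the deposited table each probe set has a log2 value for every array. The authors made these values with GCRMA, which corrects background by probe sequence, per the submitters' processing notes. The sources used here give no version. That the scale is log2 was inferred from the range of values. Differences of dim probe sets can be understated after such summarisation. Scanner files were not used here. Precision is limited by having 6 arrays.

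Of 14010 probe sets, 44 controls were left out and 13966 tested, 12443 of them with 1 symbol in the probe table and 327 with several. The 9 genes were matched by Entrez identifier to RefSeq (Release 6 plus ISO1 MT). The test was limma 3.58.1 under R 4.3.3: lmFit, then eBayes, with no covariate, two-sided, and Benjamini-Hochberg adjustment over all probe sets, calling an adjusted p under 0.05. Each SE is that of the moderated fit. With 3 arrays in each group an exact permutation p cannot be below 0.1. Figures were made with matplotlib 3.10.9. Simulated data with known changes were used to test the fit.

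The genes and lists were chosen with earlier results of these data known, so lists are described by counts and medians, without a test. Named were all probe sets of the chosen genes and, per other list, the 4 of smallest p (all for other integrin subunits). Same-numbered arrays were checked for pairing. Their deviations from the group means correlated at 0.613, -0.079 and 0.600 over probe sets. Arrays of different number correlated at between -0.682 (DN1 with ACT3) and 0.292 (DN1 with ACT2). Numbers 1 and 3 thus ran alike across the groups and number 2 did not. The labels name no pairing, and the main fit did not treat the numbers as pairs. The alternatives were leaving out probe sets with a mean under 6, shifting arrays to 1 median, quantile normalization, a robust prior with intensity trend, a replicate block, array weights, 2 ways of joining a gene's probe sets, and leaving out each array.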

Additional observations from a re-analysis of the deposited data

How the results depend on the processing

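No intervein or integrin probe set was called under any of the 14 alternatives, and the smallest adjusted p of limma among them was 0.619. Over all probe sets 1 was called with array weights, 1 gene when its probe sets were averaged, and 0 under the others; at an unadjusted p under 0.05 the counts ran from 193 without DN2 to 1043 without ACT3, and 1109 with array weights. With a replicate block, 0 were called and 774 had such a p; the log2 differences do not move in this balanced design, and scb stayed at -0.47. The median log2 difference over the 10 probe sets ran from -0.10 to 0.0797 with 1 array left out. The sign turned with array weights for mys (-0.087), if (-0.053), rhea 143020_at (-0.042), Ilk (-0.067) and kn (-0.197), and with quantile normalization for ItgaPS4 (-0.031). With 1 array left out, the range included both signs for px (-0.21 to 0.11), mys (-0.034 to 0.28), rhea 143020_at (-0.030 to 0.285), Ilk (-0.085 to 0.17), ItgaPS4 (-0.037 to 0.11), ItgaPS5 (-0.17 to 0.10) and kn (-0.19 to 0.24). The causes were not tested. Signals near the yeast controls, such as scb, limit what a difference can show.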
